A study of Rattus norvegicus with 15 samples.

Results

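Among 43936 transcript IDs measured in the abdominal aorta of rats, 36 were listed only for spontaneously hypertensive rats given neferine and reached a value of 1 or more in 4 or 5 of the 5 libraries of that group. These 36 transcripts were chosen by their deposited values in the neferine libraries and by their absence from the tables of the other groups, so their presence under neferine is how they were found and is not a result. RNA sequencing was done on 15 libraries in 3 groups of 5: Wistar Kyoto rats (WKY), whose blood pressure is normal, spontaneously hypertensive rats (SHR), and SHR treated at 10 mg/kg per day with neferine, a lotus alkaloid (SHR+Nef). Per the labels, WKY and SHR received double distilled water, treatment lasted 10 weeks in all groups, and no age is given. No group carries an engineered allele. The study's title concerns the blood pressure of SHR under neferine, and the comparison of interest here is between the treated and the untreated SHR. The design text speaks of mice and the sample labels of rats, and the labels were followed.

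A gene often gives rise to several transcripts, or isoforms, which differ by alternative start sites, splicing or ends, and an assembler rebuilds such isoforms from reads and numbers them within a locus. Isoforms of 1 locus share exons, so that the abundance of each is an estimate that divides the reads of shared exons among them. In the wall of an artery, many contractile and matrix genes are known to change isoform when smooth muscle cells change state. Here 33 of the 36 transcripts are assembled ones, named MERGE followed by a locus number and an isoform number, and 3 have Ensembl rat IDs. The files do not pair these IDs with gene names, positions or sequences, so the transcripts are described by locus and isoform, and the markers of smooth muscle or other vessel cells could not be looked up. In bulk tissue, fewer cells of a type and less RNA per cell cannot be told apart.

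The tables give an abundance for each transcript without naming its unit, and the sums per library ranged from 496460 to 746274. Read depth is unknown. SHR replicate 4 stood apart, with 8259 zeros among the 39097 transcripts listed for all 15 libraries, against 2560 to 3739 in the others. Absence from a table follows from a threshold and is not a zero. All transcripts listed for WKY and SHR averaged 0.5 or more in at least 1 of those groups, and those listed for all 15 libraries averaged 0.5 or more in SHR or in SHR+Nef. If the same threshold held for the 36 transcripts, their means in WKY and in SHR were each under 0.5, while single libraries of those groups could have been higher. Means of the 36 in SHR+Nef lay between 1.10 and 29.1.

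The 36 transcripts were the upper end of 2065 listed only for SHR+Nef, most of which were present in few libraries. Of the 2065, 355 were at 1 or more in none of the libraries, 1034 in 1, 509 in 2, 131 in 3, 29 in 4 and 7 in all 5. Levels of the 36 were low. Their medians over the 5 libraries ran from 1.08 to 25.8, but the second highest median was 4.24, 33 medians were under 3 and 26 were under 2. Ensembl transcripts made up 8.33% of the 36, 18.6% of the 2065 and 33.5% of all 41162 transcripts listed for SHR+Nef. Among all 20246 transcripts listed for SHR+Nef at 1 or more in 4 or 5 libraries, the share was 46.2%. The share of the 36 rests on 3 transcripts.

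**Figure D1:**
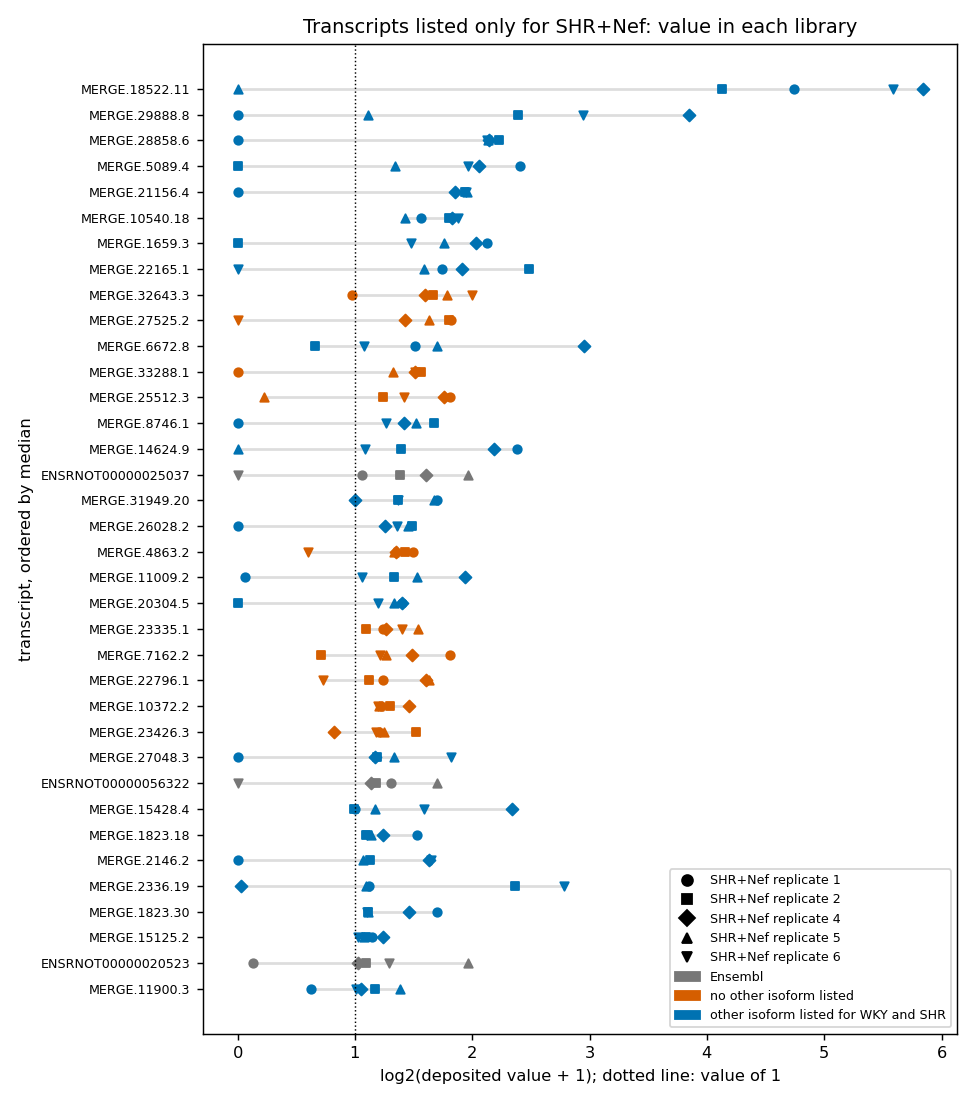
Value of each of the 36 transcripts in each SHR+Nef library on a log2(value + 1) axis, with a marker shape per replicate and a colour for transcripts with another isoform of their locus listed, with none listed, or with an Ensembl ID. One transcript, MERGE.18522.11, reaches a median of 25.8, 7 transcripts lie at or right of the dotted line (a value of 1) in all 5 libraries, and many of the others have 1 library at 0.

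Set against the other isoforms of their loci, 23 of the 33 assembled transcripts were additions to a locus already listed for WKY and SHR. These 23 lay at 22 loci, where 110 other isoforms were listed for all 15 libraries. The remaining 10 had no other MERGE isoform in any table. Of these 10, 3 carry the isoform number 1 and 7 carry a higher number. For the 7, the lower numbers are not listed under a MERGE ID, and what the assembly held at those numbers is unknown. A locus absent from WKY and SHR is thus not shown for the 7. The 3 Ensembl transcripts cannot be placed, because the tables do not tie Ensembl IDs to MERGE loci. For the same reason, a transcript with an Ensembl ID listed for WKY and SHR could belong to any of the 10 loci. A locus absent from WKY and SHR is therefore not shown for those numbered 1 either.

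Within the MERGE isoforms of their loci, the added isoforms ranged from minor to nearly the whole sum. Locus sums, shares and ranks count MERGE isoforms only, because transcripts with Ensembl IDs could not be tied to a locus. Their share of the summed isoforms listed for SHR+Nef, as a median over the 5 libraries, ran from 5.15% to 100%, with a median of 26.3%. It was over 50% for 7 of the 23 and under 25% for 11. By mean value in SHR+Nef, 12 of the 23 were the most abundant isoform of their locus, 2 were second and 9 ranked lower. The members were chosen by these same SHR+Nef values and the other isoforms were not. Their shares and ranks are therefore descriptions.

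The 7 transcripts at 1 or more in all 5 libraries were low and even. MERGE.10540.18 was the highest of them, at 1.96, 2.49, 2.55, 1.68 and 2.68 in SHR+Nef replicates 1, 2, 4, 5 and 6 (2.27 ± 0.427, SD, n = 5; further series of 5 values are in the same order). MERGE.31949.20 stood at 2.26, 1.58, 1.01, 2.19 and 1.58, with a mean of 1.72 ± 0.513 (SD, n = 5). MERGE.15125.2 varied least, at 1.21, 1.14, 1.36, 1.11 and 1.04 (1.17 ± 0.124, SD, n = 5). All values of these 3 lay between 1.01 and 2.68. Both members of locus MERGE.1823 belong to the 7. MERGE.1823.18 was at 1.89, 1.14, 1.36, 1.21 and 1.14 and MERGE.1823.30 at 2.24, 1.16, 1.75, 1.17 and 1.15, with replicate 1 highest and replicate 4 second in both. The last of the 7, MERGE.10372.2 (1.33, 1.46, 1.75, 1.30 and 1.29) and MERGE.23335.1 (1.36, 1.13, 1.41, 1.90 and 1.64), have no other isoform listed.

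Locus MERGE.15125 held an old isoform at low levels in all 5 SHR+Nef libraries, beside an added one that was most of the sum. It has 1 other listed isoform, MERGE.15125.1, which stood at 0.321, 0.875, 0.785, 1.10 and 0.814 in WKY replicates 1 to 5 and at 0.947, 1.26, 0.848, 1.14 and 0.890 in SHR replicates 1 to 5. In SHR+Nef it was at 0.296, 0.297, 0.397, 0.292 and 0.238, below every SHR library (SHR mean 1.02 ± 0.175, SHR+Nef mean 0.304 ± 0.0577, SD, n = 5 each). The added MERGE.15125.2 made up 77.4% to 81.4% of the locus in the 5 SHR+Nef libraries. With it included, the locus summed to 1.28 to 1.76 in SHR+Nef, above all SHR libraries, but that order ended when the 0.5 that the threshold could hide was added to SHR. MERGE.15125.1 did not reach 1 in 5 libraries and was therefore not tested.

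At 3 other loci with 1 isoform listed for all 15 libraries, the added and the old isoform traded places from library to library. MERGE.21156.4 was at 0, 2.82, 2.60, 2.87 and 2.86 in SHR+Nef, while MERGE.21156.1 was at 2.91, 0.0270, 0.0643, 0.0353 and 0.0550. Either isoform was thus near 0 where the other was near 3, and their sum was 2.67 to 2.91 in every SHR+Nef library. In SHR, MERGE.21156.1 alone was at 0.0429, 3.21, 2.64, 1.89 and 3.09, and the SHR+Nef sums lay within that range. Any MERGE.21156.4 hidden by the threshold in SHR is not in these values. Among WKY libraries it was at 0.0642, 2.84, 0.838, 2.65 and 0.894, and a further isoform listed only for WKY and SHR, MERGE.21156.2, was at 2.53 in replicate 3 and 1.14 in replicate 4 and at 0 in the other 8 libraries.

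MERGE.5089.4 and MERGE.5089.1 showed the same exchange with another library as the exception. The added isoform was at 4.31, 0, 3.15, 1.54 and 2.91 and the old one at 0.338, 4.83, 0.0992, 0.137 and 0.0884. MERGE.5089.1 stood at 2.96, 2.39, 3.87, 2.97 and 4.11 in WKY and at 2.83, 0.294, 2.43, 0.856 and 3.30 in SHR. Summed, the locus reached 1.67 to 4.83 in SHR+Nef, which overlaps the values of MERGE.5089.1 alone in both other groups. With all libraries the old isoform was not called lower in SHR+Nef than in WKY (log2 difference -1.39, SE 0.45, adjusted p = 0.242, limma), and without SHR+Nef replicate 2 it was (-1.86, SE 0.32, adjusted p = 0.0118, limma).

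At locus MERGE.8746, the isoform numbered 1 is the added one. MERGE.8746.1 was at 0, 2.19, 1.67, 1.86 and 1.40 and MERGE.8746.2 at 2.06, 0, 0, 0 and 0.790 in the same libraries. SHR had MERGE.8746.2 at 2.39, 1.997, 1.74, 1.49 and 2.06, and WKY at 0.260, 0, 1.22, 1.05 and 1.40. Both together came to 1.67 to 2.19 in SHR+Nef, inside the SHR range of 1.49 to 2.39. That SHR range covers MERGE.8746.2 alone, and the threshold could hide a mean of MERGE.8746.1 under 0.5 there. The totals of the 2 groups are therefore not compared like for like. MERGE.8746.2 itself was under the SHR range in 4 of the 5 SHR+Nef libraries.

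Locus MERGE.28858 did not follow this pattern. MERGE.28858.6 was at 0, 3.68, 3.43, 3.38 and 3.37 in SHR+Nef, close to each other in 4 libraries. Its listed isoform MERGE.28858.3 was at 0.0712, 0.0722, 2.36, 0.0754 and 0.0892 there and at 0.0683, 0.304, 0.137, 0 and 0.0528 in SHR, so SHR had little of the locus in the tables. WKY held it at 0.108, 5.996, 0.0496, 5.66 and 4.24. MERGE.28858.3 was therefore present in 3 WKY libraries and near 0 in 5 SHR libraries, where MERGE.28858.6 has no value. Both isoforms summed to 3.46 to 5.79 in 4 SHR+Nef libraries, with SHR+Nef replicate 1 at 0.0712. At MERGE.11900, the last locus of this kind, MERGE.11900.3 was at 0.547, 1.26, 1.08, 1.61 and 1.01 and did not displace MERGE.11900.2, which was even at 0.720 to 0.902 in SHR+Nef and ranged from 0 to 3.94 in SHR.

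**Figure D2:**
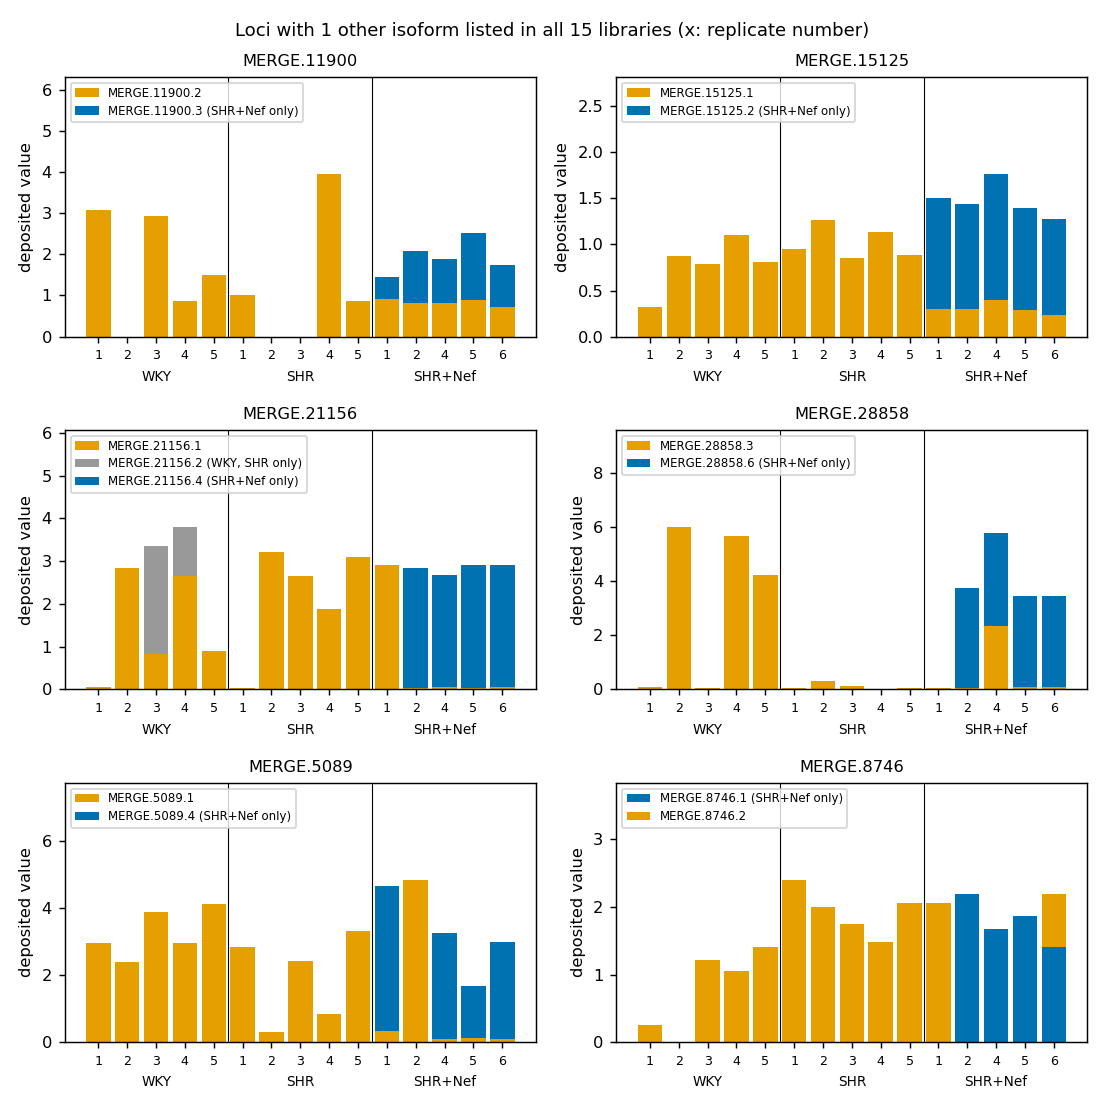
Stacked deposited values per library at the 6 loci where 1 other isoform was listed for all 15 libraries, with the added isoform in blue, the listed one in orange and an isoform listed only for WKY and SHR in grey. Blue makes up most of the bar in SHR+Nef at MERGE.15125 in 5 libraries and at MERGE.21156 and MERGE.5089 in 4, while MERGE.11900 holds both in every SHR+Nef library.

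A count over all loci shows how common the trading is. In 7 of the 18 members that missed 1 library and had other isoforms (38.9%), the other isoforms summed highest in the library that lacked the member. Among the 2263 other assembled isoforms in the SHR+Nef tables at 1 or more in 4 of the 5 libraries, that share was 37.3%, so the members' share is near the background and is not particular to them.

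Members of large loci had small median shares of them. MERGE.10540.18, with 15 other isoforms listed for all libraries, was 5.0% to 10.3% of its locus and 6.21% at the median. Summed without it, MERGE.10540 averaged 47.8 ± 7.46 for WKY, 46.5 ± 8.10 for SHR and 31.8 ± 13.7 for SHR+Nef (SD, 5 libraries each). The most abundant isoform there, MERGE.10540.17, jumped between libraries, with 24.2, 2.23, 20.7, 0 and 19.8 in SHR and 4.17, 0.107, 3.26, 6.06 and 26.5 in SHR+Nef. MERGE.2336.19 held the smallest median share, 5.15%, but reached 26.6% in replicate 6, and was at 1.17, 4.14, 0.0223, 1.14 and 5.87. Its locus was level, at a summed mean of 25.9 in SHR and 25.2 in SHR+Nef without it, and its most abundant isoform MERGE.2336.1 averaged 6.99 ± 3.61 for SHR and 8.73 ± 1.95 for SHR+Nef (SD, 5 libraries each).

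MERGE.29888.8 had the second highest median of the 36, at 0, 4.24, 13.4, 1.16 and 6.70, and made up 6.05% of its locus at the median and 27.3% in replicate 4. Most of that locus was MERGE.29888.1, at 33.6, 29.0, 21.8, 18.0 and 43.2 in SHR and 21.1, 23.1, 23.3, 37.2 and 21.6 in SHR+Nef. The groups overlap, and the log2 difference of this isoform was -0.17 (SE 0.33, adjusted p = 0.906, limma). The sum of the 7 other isoforms averaged 35.6 in SHR and 50.4 in SHR+Nef (log2 difference 0.52, SE 0.25, adjusted p = 0.764, limma).

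Loci MERGE.1823 and MERGE.31949 have the longest lists of isoforms, 21 and 22. At MERGE.1823, 9 of the 21 isoforms were listed only for SHR+Nef, 2 of them among the 36, 11 for all libraries and 1 only for WKY and SHR. MERGE.1823.30 was the most abundant of all 21 in SHR+Nef by mean, at 1.49 ± 0.490 (SD, n = 5), yet it was 9.11% of the locus at the median, so the locus was spread thinly over many isoforms. Over all libraries the highest isoform at this locus was MERGE.1823.29, at 3.74 ± 4.16 for WKY, 0.523 ± 0.494 for SHR and 1.29 ± 0.541 for SHR+Nef (SD, 5 libraries each). MERGE.31949.20 likewise ranked first of 22 in SHR+Nef with a median share of 9.32%. Its summed locus without it was 14.3 in SHR and 13.8 in SHR+Nef (log2 difference -0.05, SE 0.15, adjusted p = 0.942, limma), and MERGE.31949.31, the most abundant over all libraries, owed that place to SHR replicate 4, at 6.80 against 0.601 to 1.26 in the other 14.

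The remaining 10 added isoforms with other listed isoforms had medians from 1.18 to 2.39. MERGE.22165.1 was at 2.35, 4.61, 2.77, 1.999 and 0 and formed 58.9% of its locus at the median. MERGE.14624.9 (4.21, 1.62, 3.54, 0 and 1.12) and MERGE.1659.3 (3.36, 0, 3.09, 2.39 and 1.78) were the most abundant isoforms of theirs, with median shares of 38.7% and 28.8%. MERGE.26028.2 also ranked first, at 0, 1.81, 1.39, 1.73 and 1.57. There MERGE.26028.1, a minor isoform at 0.726 to 1.15 in SHR, was at 0.831 in the SHR+Nef library without the added isoform and at 0.0062 to 0.0624 in the other 4. The other 6 of this group (MERGE.11009.2, MERGE.15428.4, MERGE.20304.5, MERGE.2146.2, MERGE.27048.3 and MERGE.6672.8) stood at 0 to 0.984 in their lowest library and at 1.64 to 6.72 in their highest.

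The 10 transcripts without another listed isoform behaved like the rest in level. Those numbered 1 were MERGE.23335.1, given above, MERGE.22796.1 at 1.36, 1.17, 2.05, 2.10 and 0.651, and MERGE.33288.1 at 0, 1.95, 1.85, 1.504 and 1.84. No MERGE isoform of these 3 loci is listed for WKY or SHR, but isoforms with Ensembl IDs could not be tied to them. Among those with a higher number, MERGE.32643.3 was highest, at 0.963, 2.17, 2.03, 2.45 and 2.98, followed by MERGE.27525.2 at 2.53, 2.49, 1.69, 2.11 and 0. MERGE.25512.3 was at 2.51, 1.36, 2.38, 0.171 and 1.68, MERGE.4863.2 at 1.82, 1.69, 1.54, 1.52 and 0.513, and MERGE.7162.2 at 2.51, 0.633, 1.80, 1.40 and 1.32. MERGE.23426.3 came lowest of those below 1 in a library, at 1.31, 1.87, 0.763, 1.38 and 1.26. All 10 medians were between 1.31 and 2.17.

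The 3 Ensembl transcripts were no higher. ENSRNOT00000025037 was at 1.09, 1.61, 2.03, 2.90 and 0, and ENSRNOT00000056322 at 1.47, 1.26, 1.20, 2.25 and 0. Both were highest in SHR+Nef replicate 5 and at 0 in replicate 6. ENSRNOT00000020523 was at 0.0925, 1.13, 1.03, 2.90 and 1.45, again highest in replicate 5.

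Missing libraries among the members were usually exact zeros. Of the 29 members at 1 or more in 4 libraries, 17 (58.6%) were at exactly 0 in the fifth, against 20.6% of the 4249 other transcripts listed for SHR+Nef at 1 or more in 4 libraries, and the other 12 members were at 0.0223 to 0.984 there. The low library was replicate 1 in 12 members (41.4%), 8 of them at 0, replicate 2 in 6, replicate 4 in 2, replicate 5 in 3 and replicate 6 in 6. In the 4249 others, replicate 1 was the low one in 21.6% and replicate 6 in 27.1%. These shares are descriptions: the members share their 5 libraries, and the rule set how many of them each member could miss. An exact 0 can be a failed estimate.

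**Figure D3:**
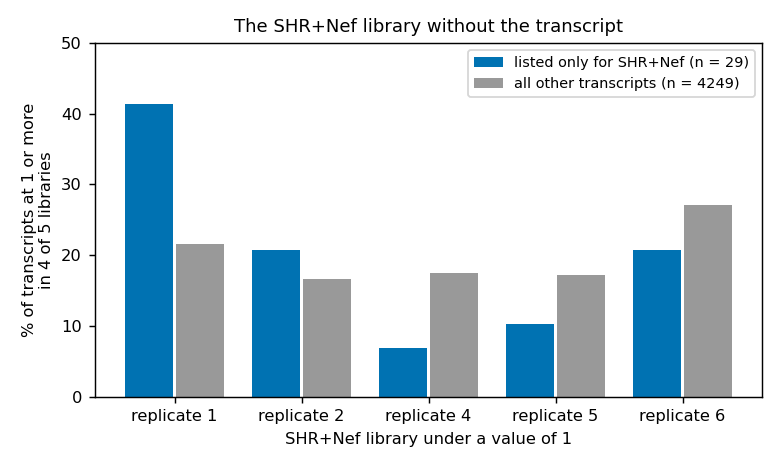
Share of transcripts at 1 or more in 4 of the 5 SHR+Nef libraries whose low library was each replicate, for the 29 members (blue) and the 4249 other listed transcripts (grey). Replicate 1 was the low library in 41.4% of the members and 21.6% of the others, replicate 4 in 6.90% and 17.5%.

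The 36 members have no value in WKY or SHR and could not be tested. The other isoforms of their loci could be, and the rule did not use their values. Reads of shared exons are divided among the isoforms of 1 locus, so these tests are not independent of how the members were chosen. Of the 110, 67 passed the filter (1 or more in 5 libraries), and none was called between SHR+Nef and SHR by limma at an adjusted p under 0.05, where 0.00687% of 29095 transcripts were called. At an unadjusted p under 0.05 there were 8 of the 67 (11.9%), 4 higher and 4 lower, against 6.15% of all transcripts. The smallest adjusted p was 0.690, and the median log2 difference was 0.03, against 0.06 over all transcripts. Without SHR replicate 4 these medians were -0.03 and 0.002.

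The 8 were picked out once their values were known, and none was a call. MERGE.8746.2 and MERGE.21156.1, given above, were 2 of the lower ones, with log2 differences of -1.05 (adjusted p = 0.716, limma) and -1.07 (adjusted p = 0.780, limma). MERGE.22165.2 was at 11.2, 2.33, 4.24, 7.06 and 11.6 in SHR and at 2.03, 0.220, 1.91, 1.25 and 2.18 in SHR+Nef, which do not overlap (log2 difference -1.62, adjusted p = 0.778, limma). MERGE.6672.9 and MERGE.6672.10, isoforms of 1 locus, differed in opposite directions, by -1.75 and 2.45 on the log2 scale (adjusted p = 0.780 and 0.778, limma). MERGE.6672.10 was at 9.24, 0, 0, 0 and 3.37 in SHR and at 14.1, 12.4, 8.70, 10.8 and 8.36 in SHR+Nef, and MERGE.6672.9 at 0.330, 5.64, 12.7, 10.7 and 3.17 in SHR and at 0.604, 0.316, 0.399, 2.59 and 0.275 in SHR+Nef. The groups overlap for both, since SHR replicate 1 lay within the SHR+Nef range. The added MERGE.6672.8 was at 1.85, 0.582, 6.72, 2.24 and 1.11, and the other isoforms of its locus summed to a mean of 13.6 in SHR and 13.7 in SHR+Nef.

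On the higher side, MERGE.10540.20 was at 0, 1.80, 0, 1.26 and 0 in SHR and at 2.62, 2.68, 3.51, 2.15 and 3.97 in SHR+Nef (log2 difference 1.44, adjusted p = 0.762, limma). It is an isoform of the same locus as MERGE.10540.18, with a higher level in each SHR+Nef library than any SHR library. MERGE.1823.14 (0.94, adjusted p = 0.767, limma) and MERGE.31949.13 (0.99, adjusted p = 0.690, limma) had SHR means under 0.5, so the listing threshold alone put them higher in SHR+Nef, as for the members themselves. MERGE.31949.13 was at 0 in all SHR libraries and at 0.766 to 1.29 in 4 WKY libraries.

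Counted by overlap instead of a test, 2 of the 110 isoforms lay below all SHR libraries in all 5 SHR+Nef libraries (MERGE.15125.1 and MERGE.22165.2), where 0.396% of 39097 transcripts did. Another 3 lay above (MERGE.10540.20, MERGE.1823.14 and MERGE.6672.7), where 0.647% did. MERGE.1823.14 and MERGE.6672.7 had SHR means of 0.306 and 0.416, under 0.5. The listing threshold alone thus put their means higher in SHR+Nef. Of the summed loci, 1 of 22 lay below (MERGE.15125) and none above, where 0.53% of 13384 loci lay below. With counts this small, nothing is read from the difference to the background.

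Summed over their other isoforms, 20 of the 22 loci passed the filter. Between SHR+Nef and SHR none of these sums was called by limma (0.0288% of 10401 sums were), with a smallest adjusted p of 0.738. At an unadjusted p under 0.05 there were 5, all lower in SHR+Nef, where 2.72% of all sums were lower at that p. These were MERGE.8746 (log2 difference -1.05), MERGE.14624 (-1.21), MERGE.22165 (-1.39), MERGE.10540 (-0.62) and MERGE.21156 (-1.07), with adjusted p of 0.738 to 0.764 by limma. The median over the 20 was -0.06, against 0.05 over all loci. Without SHR replicate 4, which held many zeros, 19 of these sums passed the filter, with a median of -0.15, against -0.008 over all loci. These sums leave out the members, which were chosen for their values in SHR+Nef, so lower sums there are not independent of that choice. Nothing is read from their difference to the background.

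Without the members, the SHR+Nef mean of the summed locus was lower than the SHR mean at 13 of the 22 loci (59.1%) and higher at 9, where 49.8% of all 13384 loci were lower. With the members added, it was higher at 19 of the 22, and at 17 when 0.5 per member was added to SHR for what the threshold could hide. Both the rise and its size follow from the choice of members, and the sums without them are not independent of it. These values are a description. MERGE.22165 went from 2.22 to 4.56, against 7.97 in SHR, and MERGE.14624 from 0.753 to 2.85, against 3.52. The sums with members leave out 11 other isoforms of these loci listed only for SHR+Nef. At MERGE.14624 these were MERGE.14624.6 and MERGE.14624.10, with SHR+Nef means of 1.32 and 1.07. Counting them would put the SHR+Nef mean of that locus above the SHR mean. MERGE.10540 went from 31.8 to 34.0 and stayed under the SHR mean of 46.5.

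**Figure D4:**
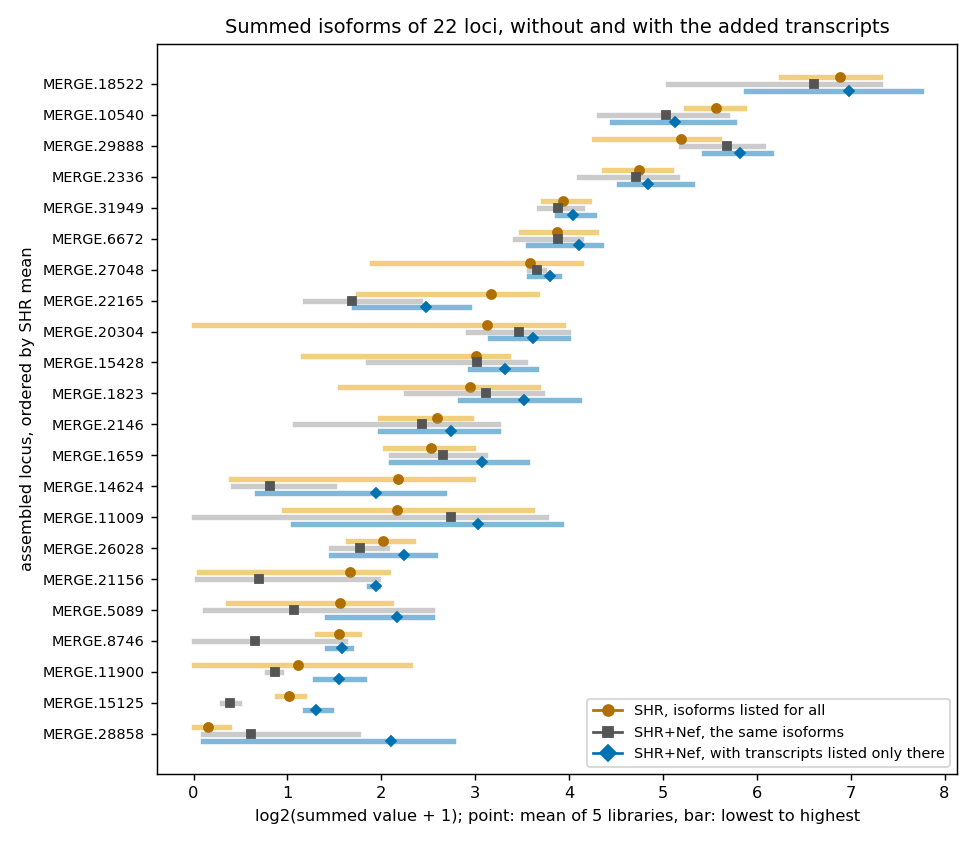
Summed isoforms of the 22 loci on a log2(value + 1) axis: SHR (circles), SHR+Nef over the same isoforms (squares) and SHR+Nef with the members added (diamonds). Points are means of 5 libraries and bars run from the lowest to the highest. The diamonds leave out 11 other isoforms of these loci listed only for SHR+Nef. The diamonds lie near or above the circles at most loci, and with the members added the SHR+Nef bar clears the SHR bar at 1 locus, narrowly, MERGE.15125.

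Locus MERGE.18522 held the most abundant of the 36 and also the calls at these loci against WKY. MERGE.18522.11 was at 25.8, 16.5, 56.4, 0 and 46.9 in SHR+Nef (29.1 ± 22.8, SD, n = 5), which was 26.8%, 19.8%, 26.3%, 0% and 26.6% of the locus. MERGE.18522.1 was at 0.101, 0.149, 0.109, 0.113 and 0.115 in WKY, at 7.80, 21.1, 9.12, 71.6 and 3.63 in SHR and at 23.0, 58.9, 4.55, 86.6 and 3.55 in SHR+Nef. No library of either SHR group overlapped WKY, while the 2 SHR groups overlapped each other. The isoform was called higher than in WKY in SHR (log2 difference 3.71, SE 0.83, adjusted p = 0.0477, limma; 1.14% of transcripts were called) and in SHR+Nef (4.16, SE 0.83, adjusted p = 0.0215, limma; 1.3% were called). These comparisons share their WKY libraries.

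MERGE.18522.4, the other isoform listed for all libraries, was at 42.4, 38.5, 21.9, 46.1 and 35.1 in WKY, where it was almost the whole locus. It was at 150, 60.6, 141, 4.10 and 118 in SHR and at 9.16, 7.79, 153, 10.6 and 126 in SHR+Nef. In both SHR groups the libraries with little MERGE.18522.4 were those with the most MERGE.18522.1: SHR replicate 4 and SHR+Nef replicates 1, 2 and 5. The added MERGE.18522.11 appeared beside either of them, and in SHR+Nef replicate 1 a further isoform listed only for SHR+Nef, MERGE.18522.7, was at 38.2 and at 0 elsewhere. The sum of MERGE.18522.1 and MERGE.18522.4 was higher in SHR than in WKY (117 ± 37.9 against 36.9 ± 9.31, SD, n = 5 each; log2 difference 1.62, SE 0.37, adjusted p = 0.0330, limma; 1.97% of locus sums were called). In SHR+Nef it was 96.7 ± 49.7, and 126 ± 66.4 with MERGE.18522.11 (SD, n = 5). Against WKY the sum was not called in SHR+Nef (1.21, SE 0.37, adjusted p = 0.136, limma; 2.3% of sums were called), but it was without SHR+Nef replicate 1 (1.56, SE 0.30, adjusted p = 0.0137, limma). Against SHR it differed by -0.41 (SE 0.37, adjusted p = 0.780, limma).

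The calls at this locus were often lost when 1 library was left out, whichever WKY library it was. The call of MERGE.18522.1 in SHR+Nef against WKY ended without any 1 of the WKY replicates 1, 2, 3, 4 or 5 or the SHR+Nef replicates 1, 2 or 5 (adjusted p from 0.0512 to 0.0626, limma). In SHR against WKY it ended without any 1 of the WKY replicates, SHR replicates 1 to 4 or SHR+Nef replicate 1 (adjusted p from 0.0671 to 0.116, limma). For the locus sum in SHR against WKY it ended without any 1 of the WKY replicates or SHR replicates 1, 3 or 5 (adjusted p from 0.0524 to 0.107, limma). Over these settings the log2 difference of the isoform was 3.13 to 4.69.

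**Figure D5:**
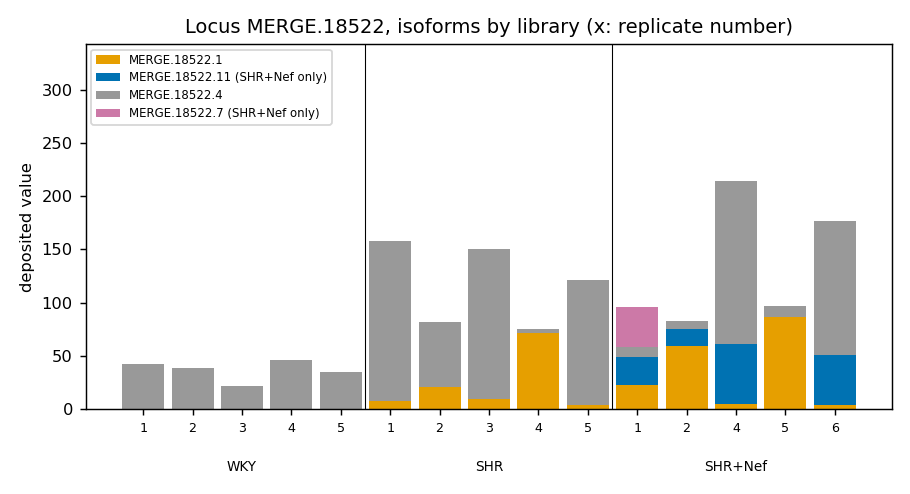
Deposited values of the 4 listed isoforms of locus MERGE.18522, stacked per library, with replicate numbers on the x axis. WKY libraries hold almost only MERGE.18522.4 at 21.9 to 46.1, and MERGE.18522.11 (blue) adds 16.5 to 56.4 in 4 of the 5 SHR+Nef libraries.

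Outside locus MERGE.18522, no other isoform was called against WKY with all libraries. In SHR+Nef against WKY, 1 of the 67 isoforms was called and 9 were at an unadjusted p under 0.05, and in SHR against WKY 1 and 6 (limma). MERGE.20304.6 was at 0 in 4 WKY libraries and at 2.26 in replicate 4, at 3.14, 1.14, 3.03, 0 and 5.29 in SHR, and at 2.63, 5.24, 4.35, 2.37 and 2.43 in SHR+Nef. It was not called in SHR+Nef against WKY (log2 difference 1.75, adjusted p = 0.106, limma), but it was without WKY replicate 4 (2.09, adjusted p = 0.0379, limma) and without SHR replicate 4 (1.75, adjusted p = 0.0303, limma). MERGE.10540.20 likewise was at 5.51 in WKY replicate 1 and at 0 in the other WKY libraries, and was called higher in SHR+Nef without that replicate (1.98, SE 0.31, adjusted p = 0.00763, limma). Of the sums of the 20 loci, none was called in SHR+Nef against WKY, with 3 at an unadjusted p under 0.05, and 1 in SHR against WKY, that of MERGE.18522, with 3 (limma).

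Lists built the same way on other comparisons put the size of this set in context. A list of 146 transcripts met the same rule in SHR+Nef and also had an SHR mean under 0.5, but was listed for all 15 libraries because WKY was at 0.5 or more. Of those 146, 14.4% were at 1 or more in all 5 SHR+Nef libraries, against 19.4% of the 36, and the median of their medians was 1.64, against 1.56. A further 179 transcripts listed only for WKY and SHR met the rule in the WKY libraries, with 52.0% in all 5 and a median of 1.96. Ensembl transcripts made up 18.5% of the 146 and 15.6% of the 179. Over all 20246 transcripts of the SHR+Nef tables that met the rule, 78.9% were at 1 or more in all 5 and the median was 4.27.

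Near the threshold, members and non-members were close. The members that passed most narrowly were MERGE.15428.4 and MERGE.11900.3, each at 1.01 in the lowest of the 4 libraries that counted, and ENSRNOT00000020523 at 1.03. Of the transcripts at 1 or more in 3 libraries, the highest were MERGE.18523.1 at 15.6, 16.2, 12.8, 0.134 and 0.279, MERGE.30552.3 at 17.2, 11.1, 0, 23.4 and 0, and MERGE.30134.2 at 11.7, 11.03, 13.4, 0 and 0. These lay well above most of the 36 in level and failed only by the number of libraries.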

How the data were processed

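The authors deposited a table for each library holding a signal value per transcript, which never falls below 0. Not given in the sources used here: unit (FPKM or TPM), aligner, assembler and abundance estimator. The submitters' processing notes name limma and the mouse build mm10, although the IDs are those of rat. RNA was depleted of ribosomal RNA, per the labels' protocols. Groups and replicate numbers came from the titles. The labels do not state that libraries came from separate animals, so p-values measure only the spread between these samples, which may be technical.

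Transcripts listed for all 15 libraries and at 1 or more in 5 or more of them were tested on log2(value + 1), a scale that understates the change of low transcripts. The test was limma 3.58.1 (R 4.3.3; linear model of 3 groups, empirical Bayes moderation with its trend and robust settings, two-sided), with Benjamini-Hochberg adjustment over all features tested and calls at 0.05. Locus sums add the MERGE isoforms listed for all 15 libraries, without the members and without Ensembl transcripts, and were tested the same way. The fit was tested on simulated data. Tables were built with pandas 2.3.3 in Python 3.11.15 and figures with matplotlib 3.10.9.

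The members and lists were chosen with earlier results of these data known. The rule for named transcripts took members at 1 or more in all 5 libraries, the 5 others with the highest median, the 5 highest and 3 lowest shares of a locus, members that share a locus, members with a called isoform at their locus, and the most abundant and the called isoforms of those loci; the other members and isoforms are given for completeness and were named after their values were seen. Of the 43936 IDs, 0 matched the RefSeq gene table, so gene lists and cell type markers were not tested, and no sequence is shown. Alternatives were another pseudocount, no filter, a stricter filter, limma without its options, median scaling, a replicate block, only the 2 groups compared, leaving out each library, and other thresholds for membership.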

Additional observations from a re-analysis of the deposited data

Results flagged for a closer look

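In 7 of the 36 members 1 SHR+Nef library lay farther from the others than Dixon's critical value allows for 5 samples (a gap over the range above 0.71). Chance flags about 5% of groups, and the rule itself admits 1 library under 1 per member. In 6 of the 7 the library was the lowest: MERGE.21156.4, MERGE.26028.2, MERGE.28858.6 and MERGE.33288.1 were at 0 in replicate 1, MERGE.20304.5 was at 0 in replicate 2, and MERGE.4863.2 was at 0.513 in replicate 6. In the seventh, MERGE.6672.8, replicate 4 was the highest at 6.72. Their part in the other results was not tested.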

How the results depend on the processing

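None of the other isoforms or sums of the members' loci was called between SHR+Nef and SHR under any alternative run. The number of members depends on the rule: 36 became 329 with a value of 0.5, 4 with a value of 2, 7 when all 5 libraries were asked for and 167 with 3 or more; leaving out 1 SHR+Nef library and asking for the 4 left gave 9 to 19. Median scaling kept all 36. Of 338 alternative values for the 16 named differences, 308 kept direction and side of the threshold, 30 lost a call (all at MERGE.18522) and 0 reversed. The isoform MERGE.18522.1 lost its call in SHR against WKY in 12 of 22 alternatives (log2 difference 3.13 to 5.94, adjusted p 0.0028 to 0.146, limma), and in SHR+Nef against WKY in 9 (3.63 to 6.39, adjusted p 0.00153 to 0.0912); the locus sum lost it in SHR against WKY in 9 (1.45 to 1.76, adjusted p 0.0062 to 0.127).

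Called isoforms of these loci in SHR+Nef against WKY numbered 1, and 2 with only the 2 groups, with 0 to 2 when a library was left out; in SHR against WKY they numbered 1, and 0 without the filter, with 0 to 1 when a library was left out. The 1 called was not always MERGE.18522.1: without WKY replicate 1 it was MERGE.10540.20, without WKY replicate 4 MERGE.20304.6 and without SHR+Nef replicate 2 MERGE.5089.1 (SHR+Nef against WKY), and without SHR replicate 2 MERGE.26028.8 (SHR against WKY; log2 difference -1.33, adjusted p = 0.00382, limma). Called sums numbered 0 to 1 with a library left out in both comparisons with WKY. These were MERGE.18522, MERGE.5089 (without SHR+Nef replicate 2; -1.86, adjusted p = 0.00549, limma) and MERGE.14624 (without SHR replicate 3; 1.20, adjusted p = 0.0315, limma). Over all transcripts, SHR+Nef against SHR gave 2 calls, 0 with a pseudocount of 0.1 (1693 at an unadjusted p under 0.05, limma), 0 with 5 or more in 5 libraries (680 unadjusted), 4 with only the 2 groups and 2 to 5 with a library left out. SHR+Nef against WKY gave 377, 180 with the stricter filter and 247 to 534 with a library left out, and SHR against WKY gave 331, 161, 189 with only the 2 groups, and 216 to 374. Of locus sums, 3 were called in SHR+Nef against SHR and 1 to 4 with a library left out, 239 in SHR+Nef against WKY and 109 with the stricter filter, and 205 and 93 in SHR against WKY. Fewer features enter the stricter filter; the cause of the other shifts was not tested.

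The values show no sign of pairing by replicate number, and whether the numbers pair samples is not stated. The 13 pairs with the same number correlated at -0.067 to 0.091 in their deviations, 0 above 0.1. Of 15 libraries, 3 correlated best with their own number. With a replicate block, in which SHR+Nef replicate 6 drops out of the comparisons because no other group has that number, calls over all transcripts were 0 in SHR+Nef against SHR (1905 at an unadjusted p under 0.05, limma), 164 in SHR+Nef against WKY and 145 in SHR against WKY. Under the block, called locus sums were 1 in SHR+Nef against SHR and 126 in SHR+Nef against WKY. At the members' loci 0 isoforms and 0 sums were called under the block in either comparison with WKY. It reversed none of the 16 named differences, while the sums of these loci in SHR+Nef against SHR went from 9 higher and 11 lower to 10 and 10. Read depth is unknown, so no counting error can be given for values near 1, and a value listed for SHR+Nef alone has no measured counterpart in SHR or WKY.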
